A study of Homo sapiens with 2 samples.

Results

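The mitochondrial ribosomal protein genes are the nuclear genes whose proteins, together with mitochondrial rRNA, form the ribosome inside the mitochondrion. They were taken from the deposited count table as the protein-coding genes whose symbol begins with MRPL or MRPS followed by a digit, which gave 78 of the 58735 genes listed. Of these, 49 carry a large subunit symbol (MRPL) and 29 a small subunit symbol (MRPS). The rule reads symbols and gene types and no expression value.

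Each cell makes these proteins on cytosolic ribosomes and imports them into the mitochondrial matrix, where they assemble on rRNA transcribed from mitochondrial DNA. The finished mitoribosome translates the few mRNAs of the mitochondrial genome, all of which encode subunits of the respiratory chain and ATP synthase. The large subunit joins amino acids and guides the growing chain through an exit tunnel to the inner membrane, while the small subunit binds the mRNA and decodes it. Compared with the bacterial ribosome, the mitoribosome has less rRNA and many additional proteins. Hepatocytes are rich in mitochondria, and liver tumour cells can differ widely in mitochondrial content.

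The study asked how the transcriptome of hepatocellular carcinoma (HCC) cells changes when MAEL, the gene for the piRNA pathway protein maelstrom, is lost. Total RNA came from the HCC line PLC8024 (PLC/PRF/5), labelled as Alexander cells, epithelial, from liver. There was 1 library of untreated wildtype cells (MAEL WT) and 1 library of MAEL knockout cells (MAEL KO), in which MAEL had been targeted by sgRNA and Cas9. The knockout cells were sorted for mCherry and grown as single clones, whereas the wildtype cells were not described as passing through cloning, so effects of the knockout, of the clone and of the culture cannot be told apart. With 1 library per condition no difference below has a replicate check, and no p-value is given.

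The libraries held 19904136 counts (MAEL WT) and 20833332 counts (MAEL KO). MAEL itself had 1 count in MAEL WT and 0 in MAEL KO, so these RNA counts do not check the knockout label. For the liver label, 10 of 10 hepatocyte genes were above 3 counts in both libraries, a low floor that some markers of other cells also passed. In MAEL WT these genes ran from 20 (TTR) and 26 (AFP) counts to 80091 (APOB), so not all were well counted there. All 10 were higher in MAEL KO, with summed counts of 258265 and 533546, and ALB, the gene of serum albumin, went from 59 to 8550 counts. Of 6 markers of other cells, 4 were above that floor in each library, with the endothelial genes PECAM1 at 348 and 392 counts and CDH5 at 4 and 15, the fibroblast genes COL1A1 at 92 and 11 and COL3A1 at 54 and 136, the leukocyte gene PTPRC at 3 and 0 and the erythroid gene HBB at 0 in both. Their summed counts were 501 and 554. The part of this shift in the results below was not tested. In bulk RNA, fewer cells that express a gene and less RNA per cell cannot be told apart.

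Promoters of 7 members are shown first, because they include members from both ends of the comparison below and show the motifs counted there. RefSeq promoter windows on GRCh38.p14, of 300 bases each, with 250 before the transcript start and 50 after it, could be matched for 69 of the 78 members, with 85 windows in all. MRPL2, MRPL10, MRPL13, MRPL15, MRPL21, MRPL23, MRPL35, MRPS28 and MRPS36 had no entry. The stretches shown are the 100 bases before the RefSeq start of MRPS27, MRPS31 and MRPL50, with higher values in MAEL KO, of MRPL55, MRPL52 and MRPS10, with lower values, and of MRPL20, with 2 ETS motifs. They were chosen among the 24 stretches that held a motif and at most 30 bases of annotated exon. Capitals mark motifs, each searched on both strands. The motif of ETS family factors, among them GABPA, was taken as CCGGAAG. That of the zinc finger factor YY1 was taken as its core AAGATGG. The CCAAT box was searched by that name's letters, with ATTGG as its reverse form in MRPL50. The GC box was taken as GGGCGG, and its reverse form is seen in MRPS27, MRPS31 and MRPL55. ETS and YY1 matches shared bases in 0 of the 85 windows. The stretches lie at chr5:72320241-72320340 (MRPS27), chr13:40771191-40771290 (MRPS31), chr9:101398619-101398718 (MRPL50), chr1:228109300-228109399 (MRPL55), chr6:42217862-42217961 (MRPS10) and chr1:1407294-1407393 (MRPL20), all on the minus strand, and at chr14:22829787-22829886 on the plus strand (MRPL52).
MRPS27: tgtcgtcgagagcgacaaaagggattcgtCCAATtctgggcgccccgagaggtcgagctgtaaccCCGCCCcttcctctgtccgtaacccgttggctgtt
MRPS31: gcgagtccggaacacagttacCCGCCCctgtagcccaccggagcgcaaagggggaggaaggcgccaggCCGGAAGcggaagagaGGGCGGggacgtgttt
MRPL50: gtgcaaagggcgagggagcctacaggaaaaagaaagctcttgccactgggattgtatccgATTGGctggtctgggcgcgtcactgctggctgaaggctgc
MRPL55: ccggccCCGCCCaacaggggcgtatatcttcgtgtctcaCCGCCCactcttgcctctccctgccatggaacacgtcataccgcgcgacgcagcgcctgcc
MRPL52: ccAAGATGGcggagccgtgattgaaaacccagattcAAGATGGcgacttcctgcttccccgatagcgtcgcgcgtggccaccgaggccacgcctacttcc
MRPS10: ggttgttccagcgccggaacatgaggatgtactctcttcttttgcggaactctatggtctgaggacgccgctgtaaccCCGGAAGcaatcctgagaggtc
MRPL20: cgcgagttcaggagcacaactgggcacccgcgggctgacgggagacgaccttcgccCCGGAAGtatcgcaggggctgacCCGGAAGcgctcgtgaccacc

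Across the whole family, the mRNAs were on the whole moderately more abundant in MAEL KO. The members together took 84288 counts, or 0.423% of all counts (95% exact Clopper-Pearson interval 0.421 to 0.426), in MAEL WT and 96813 counts, or 0.465% (0.462 to 0.468), in MAEL KO. Intervals of shares and of single genes cover the error of counting alone, and reads that carry no molecular identifier are not independent molecules. Of the 78 members, 77 had at least 10 counts in at least 1 library and were compared. Their log2 fold change (MAEL KO over MAEL WT), after TMM normalization with 1 added to the normalized counts, had a median of 0.40 and an SD among genes of 0.37, and ran from -0.45 to 1.17. MRPS24, with 7 and 8 counts, was below this filter.

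A positive log2 fold change was found in 68 of 77 members, where 48% of all 17887 genes tested were above 0, and 9 members were below 0 (52% of all genes). The counting interval lay above 0 in 58 members, against 34.8% of all genes, below 0 in 6 members, against 34.7%, and included 0 in 13, against 30.5%. Shifts were small in size. Only 3 members passed a log2 fold change of 1 (10.2% of all genes), none was below -1 (16.5%), and none passed 2 (2.16%) or -2 (5.64%), the study's own limits. All genes together had a median of -0.04. Among the 10237 protein-coding genes in the count range of the members, the median was 0.06 and 54% were above 0, with 8.05% above 1, 8.13% below -1, 1.39% above 2 and 2.12% below -2. In 43.6% of these genes the counting interval lay above 0, in 35.5% below 0, and in 20.9% it included 0. The direction of single members depends on the scale. Per total counts, all genes shifted by -0.27 at the median and 46 members stayed above 0, where 34.6% of all genes were above 0. The members lay 0.44 above the median of all genes on either scale, a distance that rescaling can hardly alter, since it shifts every gene about equally. Among genes with at least 100 counts over both libraries this distance was 0.34.

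**Figure D1:**
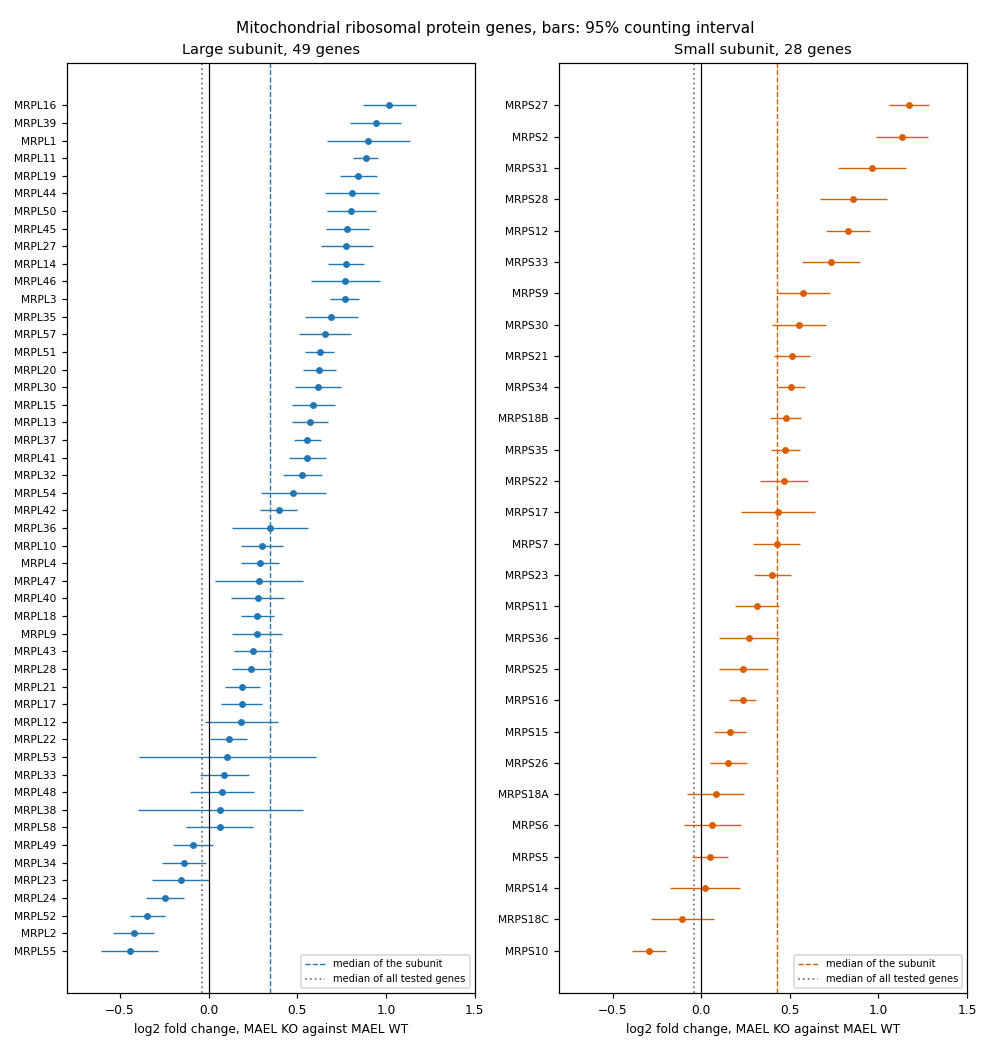
Log2 fold change, MAEL KO over MAEL WT (x axis, TMM-normalized counts with 1 added) for each of the 49 large and 28 small subunit genes compared. Points are genes, bars are 95% counting intervals, dashed lines are the subunit medians of 0.34 and 0.43, and the dotted line is the median of all tested genes, -0.04. Both panels hold points mostly to the right of 0, with MRPS27 highest at 1.17 and MRPL55 lowest at -0.45.

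The members did not move as 1 block. The counting interval of 60 of the 77 members left out the family median, 32 lying above it and 28 below it, while the intervals were narrow, with a median width of 0.25 on the log2 scale. How much of that spread would recur between repeated cultures was not measured.

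MRPS27, which encodes a pentatricopeptide repeat protein of the small subunit, stood highest. Its gene lies at chr5:72219409-72320646 on the minus strand. It had 944 counts in MAEL WT and 1840 in MAEL KO, a log2 fold change of 1.17 (1.06 to 1.29). MRPS2, the counterpart of bacterial ribosomal protein S2 at chr9:135499984-135504673, followed with 585 and 1108 counts, a log2 fold change of 1.13 (0.99 to 1.28). The third member above 1 was a large subunit gene, MRPL16 at chr11:59806135-59810872, whose bacterial counterpart sits close to the peptidyl transferase centre. It had 588 and 1031 counts, a log2 fold change of 1.02 (0.87 to 1.17). For MRPS2 and MRPL16 the interval reached below 1, and per total counts no member was above 1.

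Next in order came MRPS31 with 363 and 612 counts (0.96), MRPL39 with 635 and 1055 (0.94) and MRPL1 with 243 and 392 (0.90). MRPL1 belongs to the mobile L1 stalk, which guides spent tRNA out of the ribosome, whereas MRPS31 and MRPL39 have no counterpart in the bacterial ribosome. MRPL11, at the base of the other stalk, had the highest counts of any member in MAEL KO, with 2716 in MAEL WT and 4338 in MAEL KO (log2 fold change 0.89). MRPS28 closed the upper 8 with 379 and 595 counts (0.86). Of its principal transcript, 55.4% overlaps exons of another annotated gene that had 0 counts, and reads there may be missing from MRPS28. Intervals of neighbours in this order overlapped throughout the upper 8.

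At the other end, MRPL55 at chr1:228106679-228109312 had 823 counts in MAEL WT and 522 in MAEL KO, a log2 fold change of -0.45 (-0.61 to -0.29). MRPL2, the counterpart of bacterial L2, which helps to shape the peptidyl transferase centre, lies at chr6:43054029-43059806 and had 1506 and 971 counts, a log2 fold change of -0.42 (-0.54 to -0.31). MRPL52 at chr14:22829879-22835037, a protein without a bacterial counterpart, had 2099 and 1428 counts, a log2 fold change of -0.35 (-0.44 to -0.25). For these members MAEL KO was the lower library, unlike for most of the family. MRPS10 had 2092 and 1476 counts (-0.29) and was the lowest small subunit gene. The lower 8 also held MRPL24 with 1685 and 1230 counts (-0.24), MRPL34 with 1192 and 937 (-0.14), MRPL23 with 722 and 560 (-0.16) and MRPS18C with 575 and 462 (-0.11). MRPL23 and MRPL24 are proteins around the exit of the polypeptide tunnel. For MRPL23 and MRPS18C the interval included 0.

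**Figure D2:**
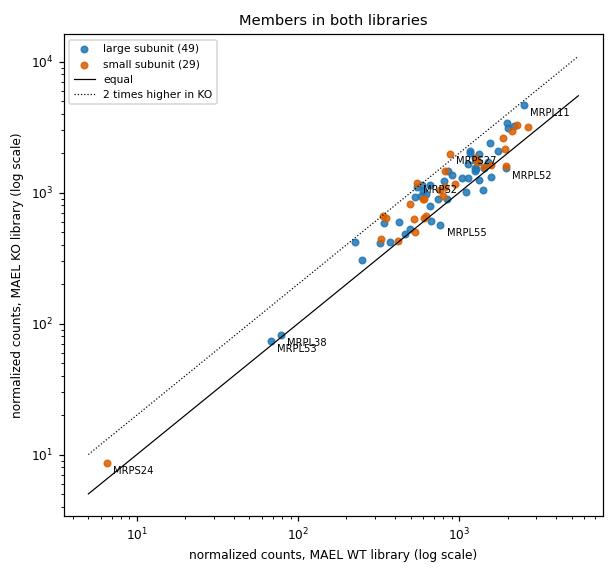
Normalized counts of each member in MAEL WT (x axis, log scale) and MAEL KO (y axis, log scale), 49 large subunit genes in blue and 29 small subunit genes in orange. The solid line marks equal counts and the dotted line 2 times higher counts in MAEL KO; most points lie between the lines, and MRPS24 lies far below the rest.

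Most members of either subunit were higher in MAEL KO, also per total counts (29 of 49 large and 17 of 28 small subunit genes). On that scale 34.6% of all genes were above 0. The large subunit took 0.265% of all counts in MAEL WT and 0.293% in MAEL KO, and the small subunit 0.159% and 0.172%. The median log2 fold change of the 49 large subunit genes was 0.34 (SD 0.38, range -0.45 to 1.02), with 42 above 0, 36 intervals above 0 and 5 below. The 28 small subunit genes had a median of 0.43 (SD 0.36, range -0.29 to 1.17), with 26 above 0, 22 intervals above 0 and 1 below. The large subunit median was thus 0.08 lower, a difference that was -0.22 without the members that have a listed pseudogene, but the order turned when the normalized counts were summed first, with log2 ratios of 0.42 (large) and 0.39 (small). An interval for the difference of medians across genes ran from -0.31 to 0.14, and genes are not replicates of a condition. The large subunit held 4 of the 8 highest members and 6 of the 8 lowest, where it held 63.6% of all members compared.

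Symbols do not follow structure for every member. In resolved mitoribosomes the products of MRPS30 and MRPS18A belong to the large subunit, and MRPS36 is now known as a component of the 2-oxoglutarate dehydrogenase complex. MRPS30 had 652 and 826 counts (0.55), MRPS18A 668 and 611 (0.08), and MRPS36 561 and 585 (0.27). Placing these by structure left the difference of medians at -0.09. MRPL37, which shares ancestry with MRPS30, had 2361 and 3004 counts, and its log2 fold change of 0.56 was almost that of MRPS30. The MRPS18 paralogs spread more widely. MRPS18B had 2008 and 2415 counts (0.48), against 0.08 for MRPS18A and -0.11 for MRPS18C.

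Within the functional centres the members also took different values. In the stalk that recruits translation factors, MRPL10 had 1121 and 1195 counts (0.30) and MRPL12 398 and 391 (0.18), against 0.89 for MRPL11. The interval of MRPL12 included 0. Of its transcript, 68.2% overlaps exons of another annotated gene, which had 0 counts, and reads there may be missing from MRPL12. In the small subunit, MRPS12, which forms part of the decoding centre, had 884 and 1357 counts (0.83). MRPS7 had 876 and 1018 (0.43), MRPS5 1694 and 1517 (0.05), and MRPS6 652 and 589 (0.06). The decoding protein thus stood among the higher members, while the intervals of MRPS5 and MRPS6 included 0.

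In the large subunit, MRPL3 had 2140 and 3148 counts (0.77) and MRPL4, whose bacterial counterpart lines the exit tunnel, 1345 and 1421 (0.29). MRPL45, which faces the inner membrane at the tunnel exit, had 915 and 1361 counts (0.78), and MRPL44, a protein with a ribonuclease III fold, 573 and 867 (0.81). All of these intervals lay above 0. MRPL41 had 1341 and 1703 counts (0.55), and MRPL43 1369 and 1406 (0.25). MRPL58, a peptidyl-tRNA hydrolase that became part of the ribosome, had 494 and 446 counts (0.06), with an interval that included 0. Among the small proteins with bacterial counterparts, MRPL32, which is matured by the m-AAA protease, had 1226 and 1528 counts (0.53), MRPL36 347 and 381 (0.34), and MRPL33 907 and 834 (0.09).

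Members were also split by whether the bacterial ribosome has a counterpart, from general knowledge and after the values had been seen, with MRPL55, MRPS28 and MRPS36 left unclassed. The 45 members with a counterpart had a median log2 fold change of 0.30, and 39 were above 0. The 29 without one had a median of 0.48, and 27 were above 0. Among small subunit symbols, each of the 10 members without a bacterial counterpart had an interval above 0 (median 0.49), against 10 of 16 with one (median 0.28). Symbols place MRPS30 among the 10 and MRPS18A among the 16, though both products belong to the large subunit. Among large subunit symbols the medians were 0.48 and 0.30. These are descriptions of gene sets of unequal size, and the difference was not tested.

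Levels of different genes can be compared only per length, and the deposited FPKM values were used for that. Over the 77 members compared, the median FPKM was 16.4 in MAEL WT and 21.4 in MAEL KO. MRPS34 had the highest level in both libraries, with 103 FPKM in MAEL WT and 146 in MAEL KO. It was followed in MAEL WT by MRPL51 (63.5 and 97.8 FPKM), MRPL18 (61.9 and 74.7) and MRPS26 (61.8 and 68.5). Per total counts MRPL18 and MRPS26 were slightly lower in MAEL KO, as were MRPL43 and MRPS36. Most mitoribosomal proteins occur in 1 copy per ribosome, MRPL12 being an exception. The FPKM levels of the highest and lowest compared members differed 98.1-fold in MAEL WT and 133-fold in MAEL KO. The lowest was MRPL38, with 67.8% of its principal transcript shared with other annotated genes, so the size of this spread is uncertain.

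The lowest levels belonged to MRPS24 (0.12 and 0.16 FPKM), MRPL38 (1.05 and 1.09), MRPL53 (2.48 and 2.67) and MRPL46 (2.62 and 4.47). Each of these shares a large part of its principal transcript with exons of another annotated gene, 85.7% for MRPS24, 67.8% for MRPL38, 52.3% for MRPL53 and 71.1% for MRPL46. The genes they share with are the readthrough gene URGCP-MRPS24 (0 and 0 counts), AC087289.3 (12 and 5), CCDC142 (387 and 359) and AC013489.1 (0 and 0). The sources used here do not give how the counter treated reads in shared exons. AC139530.2, which shares 68.2% of MRPL12 on the same strand, had 0 counts, against 398 and 391 for MRPL12. Reads in those shared exons were thus not counted for both genes, and member counts may leave such reads out. The levels of MRPS24, MRPL38, MRPL53 and MRPL46 are uncertain, as are those of MRPS18C (78.9% shared, with ABRAXAS1) and MRPS18A (56.9%, with RSPH9). The length used in FPKM joins all annotated exons of a gene, which lowers the level of a gene such as MRPL46, with 6432 bases of joined exons against 1019 in its principal transcript, relative to a measure on 1 transcript.

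**Figure D3:**
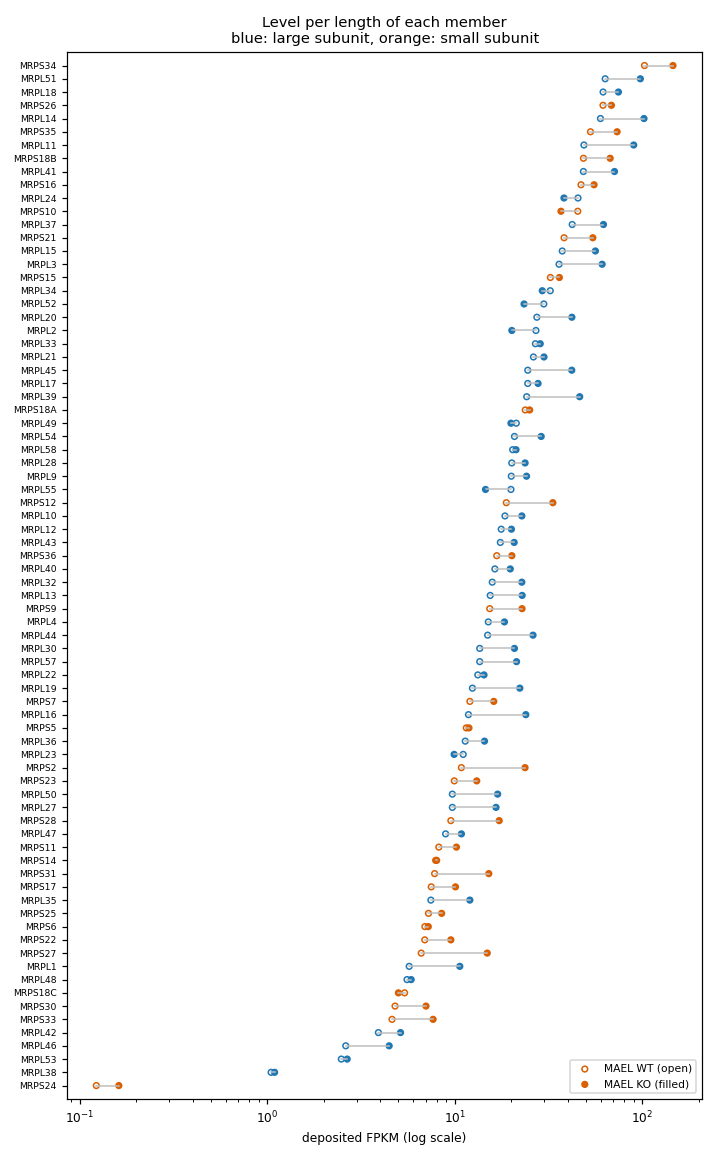
Deposited FPKM of all 78 members (x axis, log scale), ordered by the level in MAEL WT, with open points for MAEL WT, filled points for MAEL KO, blue for the large and orange for the small subunit. Levels run from 0.12 (MRPS24) to 103 (MRPS34) in MAEL WT, and most filled points lie to the right of the open ones.

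The order of levels was largely shared by the libraries. Across the 77 members log2 FPKM correlated with a Pearson r of 0.956, and FPKM with a Spearman rho of 0.936, both being correlations across genes that share lengths and annotation. By rank, 14 members moved by 10 places or more. MRPL55 moved from rank 33 to 55 and MRPL2 from 21 to 43, while MRPS2 moved from 54 to 32 and MRPL16 from 50 to 30.

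The members lie on 21 chromosomes. Their median log2 fold change was above the median of the protein-coding genes of the same chromosome on 20 of these, the exception being chromosome 14 with MRPL52 alone. It was also above it on 8 of the 8 chromosomes with at least 4 members. On chromosome 2, the median of 8 members was 0.60 against 0.08 for its protein-coding genes. On chromosome 9, MRPL41, MRPL50 and MRPS2 had a median of 0.81 against 0.10.

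Base composition moved with the values to some degree. Across the 77 members the GC content of the principal transcript and the log2 fold change had a Pearson r of -0.22 and a Spearman rho of -0.26, where protein-coding genes in the same count range had -0.15 and -0.17 (n = 10233). The 38 members with lower GC content, below 48.9%, had a median of 0.52 and the other 39 a median of 0.28, against 0.15 and -0.04 in protein-coding genes on the same sides. The member median was as large with the GC trend of these genes removed (0.39).

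Many members start close to a gene on the opposite strand, some back to back and others with overlapping starts. Within 1000 bases of the start of 29 members lay the start of a gene on the opposite strand, in 30 pairs. That of MRPS11 and MRPL46 is counted from either side. The 26 partners that were compared and were not members had a median log2 fold change of 0.30, with 16 above 0 and 10 below, while the members beside them had a median of 0.49. Member and partner values had a Pearson r of 0.24 and a Spearman rho of 0.19 over these 26 pairs. MRPS27, the highest member, overlaps at its start with PTCD2, a gene for another mitochondrial pentatricopeptide repeat protein, which had 413 and 396 counts (0.15). PELI3, whose start overlaps that of MRPL11, had 753 and 510 counts (-0.35). At the lower end, SLC7A7 beside MRPL52 had 114 and 51 counts (-0.94), and HELQ beside MRPS18C 168 and 141 (-0.04). One pair joins both subunits: MRPS11 (1012 and 1089 counts, 0.32) and MRPL46 (369 and 545 counts, 0.77) start 34 bases apart.

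The motifs were counted in the promoter windows described above, and the ratio of the members' share to that of protein-coding genes was highest for those of YY1 and ETS factors. CCGGAAG stood in 38.8% of the 85 member windows, 12.9% of the windows of protein-coding genes and 10.3% of all 35116 windows. AAGATGG stood in 31.8%, 6.09% and 5.84%. Counted by gene, 30 of 69 members held CCGGAAG (43.5%, against 16.7% of protein-coding genes) and 24 held AAGATGG (34.8% against 8.02%). The subunits had similar shares, 42.9% (large) and 44.4% (small) for CCGGAAG, and 35.7% and 33.3% for AAGATGG. The NRF1 motif, taken as its core CATGCGC, was found in 8.24% of member windows and 5.29% of those of protein-coding genes, and the E-box CACGTG in 10.6% and 8.4%. With longer forms of the YY1 and NRF1 motifs, of 10 letters each, the shares were 24.7% and 2.45% (YY1) and 11.8% and 7.39% (NRF1). The CCAAT box stood in 32.9% of member windows and 34.7% of those of protein-coding genes, and by gene in 33.3% and 42.3%. The GC box stood in 60% and 57%, with 45% of all windows, and by gene in 60.9% and 65.4%. A match is a description of letters in the window and not a binding site.

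**Figure D4:**
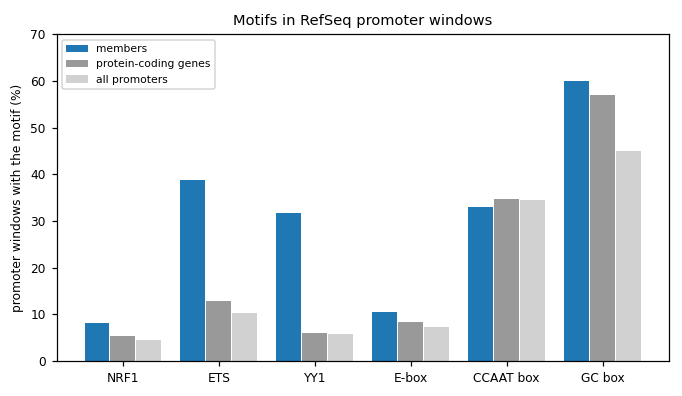
Share of promoter windows of 300 bases that hold each motif (y axis, percent) for members, protein-coding genes and all RefSeq promoters. The bars for members are at 38.8% for ETS and 31.8% for YY1, against 12.9% and 6.09% for protein-coding genes, while for the GC box members (60%) and protein-coding genes (57%) are both above all promoters (45%).

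The motifs did not sort the members in a simple way. Members with CCGGAAG had a median log2 fold change of 0.28 and those without it 0.45. With and without AAGATGG the medians were 0.43 and 0.40, with and without the CCAAT box 0.55 and 0.28, the E-box 0.56 and 0.40, and the GC box 0.29 and 0.47. For the NRF1 motif the order depended on its spelling, with 0.11 in 7 members that held CATGCGC and 0.43 in the others, but 0.62 in 9 members that held the longer form and 0.40 in the others. Among the stretches printed above, CCGGAAG stands in MRPS31 and in MRPS10, which lie at opposite ends of the comparison. The factors named by these motifs had values on both sides. GABPA, a subunit of an ETS factor of mitochondrial genes, had 705 and 979 counts (0.68) and NRF1, the nuclear respiratory factor, 308 and 380 (0.51). For GABPB1 (507 and 433 counts, -0.02) and GABPB2 (155 and 135 counts, 0.01), genes for partner subunits of GABPA, the interval included 0. YY1 had 3280 and 2513 counts (-0.17).

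Other genes of the pathway were summarised by the same measure from lists of known function. Each list stands beside the protein-coding genes in the members' count range, of which 54% were above 0, with 43.6% of intervals above 0 and 35.5% below. Per total counts the list medians ran lower, as all genes did, and only the mitochondrial rRNAs had a median below 0 on either scale. The 5 mitoribosomal proteins with other names were above 0, with a median of 0.37. PTCD3 had 1715 and 2590 counts (0.80), CHCHD1 578 and 870 (0.80), and DAP3, a GTP-binding protein of the small subunit, 3013 and 2812 (0.11). Of 29 genes for assembly of the mitoribosome and modification of its rRNA, 19 were above 0 (median 0.28), with 18 intervals above 0 and 6 below. The helicase gene DDX28 (343 and 656 counts, 1.14) and the rRNA methyltransferase gene MRM2 (783 and 1316 counts, 0.96) were highest, followed by FASTKD2 (590 and 884 counts, 0.79). NGRN (2113 and 1080 counts, -0.76), the methyltransferase gene MRM1 (421 and 220, -0.72) and the pseudouridine synthase gene RPUSD3 (837 and 570, -0.34) were lowest, so methyltransferases for the same rRNA stood at both ends of this list.

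Among 17 mitochondrial translation factors, 15 were above 0 (median 0.30), with 11 intervals above 0 and 2 below. TSFM, the exchange factor of the elongation factor, had 406 and 650 counts (0.89), the deformylase gene PDF 288 and 441 (0.82), and LRPPRC, which stabilises mitochondrial mRNA, 5937 and 8161 (0.67). The release factor gene MTRF1 had 343 and 174 counts (-0.77) and GFM2, which acts in ribosome recycling, 885 and 658 (-0.22). Other factors that end translation or free the ribosome lay above these, with 563 and 739 counts (0.60) for the recycling factor gene MRRF and 548 and 510 (0.11) for MTRF1L. The elongation factor gene GUF1 had 754 and 655 counts (0.01).

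Of 10 genes for transcription and replication of mitochondrial DNA, 8 were above 0 (median 0.44), 7 with an interval above 0 and 0 below. TFAM, which packages mitochondrial DNA and is needed for its transcription, had 1075 and 2308 counts and a log2 fold change of 1.31 (1.21 to 1.42), above every member of the family. MTERF1 had 261 and 421 counts (0.90), the helicase gene TWNK 871 and 1251 (0.73), MTERF2 212 and 200 (0.13), POLG2 604 and 501 (-0.06) and TEFM 197 and 145 (-0.23). TWNK starts beside MRPL43, whose own value was 0.25.

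Of 10 regulators of mitochondrial biogenesis, 7 were above 0 (median 0.41), with 5 intervals above 0, a share near that of the protein-coding genes above, and 2 below. The coactivator gene PPARGC1A had only 6 and 12 counts, with an interval of -0.32 to 2.91, PPARGC1B 204 and 300 (0.76), and ESRRA, a nuclear receptor partner of both, 1483 and 1185 (-0.11). MYC, a driver of ribosome production, had 3014 and 3943 counts (0.60). Of 25 genes for mitochondrial protein import, 24 were compared and 18 were above 0 (median 0.54), with 17 intervals above 0 and 5 below. PMPCA, a subunit of the protease that removes import signals, had 1391 and 2556 counts (1.09), TIMM8B 622 and 1132 (1.07) and TOMM22, a receptor of the outer membrane, 877 and 1522 (1.00). PAM16, of the import motor, had 223 and 85 counts (-1.17), TIMM9 511 and 377 (-0.23) and TIMM44 2330 and 1786 (-0.17).

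The rRNAs of the mitoribosome and the mRNAs that it translates went in different directions. The rRNA of the large subunit, MT-RNR2, had 120345 counts in MAEL WT and 61317 in MAEL KO (-0.76), and that of the small subunit, MT-RNR1, 8597 and 6804 (-0.13). The protein genes of the mitochondrial genome, 13 in all, were above 0 (median 0.75), or 12 of 13 per total counts, where MT-CO1 was at -0.028. They ran from MT-CO1 at 306671 and 314802 counts (0.25) to MT-ND2 at 22266 and 49777 (1.37). How rRNA was handled during library preparation is not given in the sources used here.

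Set beside other large complexes, the members were higher in MAEL KO by less than the cytosolic ribosomal proteins and by about as much as the nuclear subunits of respiratory complex I. Over all genes tested, 48% were above 0 and 10.2% above 1. Of 86 cytosolic ribosomal protein genes, 84 were compared, and their median log2 fold change was 0.85, with 81 above 0 and 23 above 1. Their symbols take in paralogs. The genes below 0, RPL10L (-1.53), RPL3L (-0.88) and RPL39L (-0.23), are such paralogs, while others, such as RPL22L1 (0.83), were above 0. Of 39 complex I genes, 38 were compared, with a median of 0.41, 29 above 0, and a range from -2.52 to 1.35. These genes were taken by symbol, which includes NDUFA4, now known as a complex IV subunit, and its paralog NDUFA4L2, the lowest value. Without both, 28 of 36 were above 0 and the range, from -1.04 to 1.35, was still wider than that of the members. With 1 library per condition none of these differences could be tested.

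**Figure D5:**
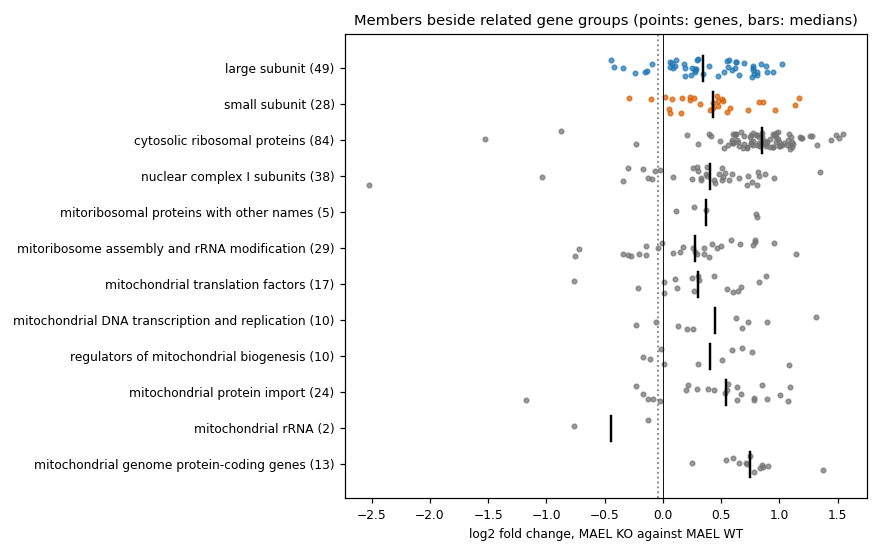
Log2 fold change, MAEL KO over MAEL WT (x axis), for the genes of each group, with the number of genes compared in brackets. Points are genes, black bars are group medians and the dotted line is the median of all tested genes; the subunit medians of 0.34 and 0.43 lie below that of cytosolic ribosomal proteins (0.85) and close to that of complex I (0.41), and both mitochondrial rRNAs lie below 0.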

How the data were processed

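The libraries, 1 of MAEL WT and 1 of MAEL KO PLC8024 cells, were run on a HiSeq instrument. The authors deposited read counts per gene, whole numbers without normalization, and FPKM values, which here equal the deposited counts divided by gene length and by a library size of 1.10 (MAEL WT) and 0.91 (MAEL KO) times the total. The submitters' processing notes name HISAT2 2.0.5, featureCounts 1.5.0-p3 and the build hg19. The coordinates in the tables are those of GRCh38, and 58724 of 58735 genes had the start and end of GENCODE 29. Strand settings of the counting are not given in the sources used here. All columns of sample values were used. The columns are named PLC5 with WT or KO, and were matched to the samples by that suffix.

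Counts were normalized by TMM (edgeR 4.0.16, with DESeq2 1.42.0 for alternative size factors, in R 4.3.3). Log2 fold changes and exact intervals were obtained with pandas 2.3.3, NumPy 2.4.6 and SciPy 1.17.1 under Python 3.11.15, and plots with matplotlib 3.10.9. A gene was compared when 1 or both libraries held 10 counts or more of it. The steps were tested on simulated data. The floor of detection was 3 counts, or 0.151 CPM in MAEL WT and 0.144 CPM in MAEL KO. No test across genes was run, because reads of 2 libraries can show that the libraries differ but not that the conditions do. The count range of the members means summed counts from 141 to 7054.

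The members and the gene lists were chosen with earlier results of these data known. The genes named are the 8 highest and 8 lowest members by log2 fold change, the 4 highest and 4 lowest by FPKM in MAEL WT, members of known role, members below the filter, members with pseudogenes that held counts, up to 3 genes at each end of each list, and genes starting beside the 8 highest or lowest. Some others, such as motif factors, MRPL20, MRPL50, MRPS11, MRRF, MTRF1L, MYC, NDUFA4, NDUFA4L2, MT-CO1 and MT-ND2, were named after their values were seen. Alternatives were DESeq2 size factors, total counts, FPKM ratios, TMM on protein-coding genes, other added counts and filters, other member sets and other denominators.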

Additional observations from a re-analysis of the deposited data

How the results depend on the processing

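With 1 library per condition, no library could be left out. No paired analysis was possible because each condition has 1 sample and the labels carry no replicate numbers. Per total counts the median log2 fold change of all members was 0.13, with 0.069 for the large and 0.15 for the small subunit. There 46 members were above 0, where 34.6% of all genes were, and 0 members were above 1. The median of all genes moved by -0.27 on that scale, to -0.31. On it 22 members went from above to below 0, 12 of them with an interval above 0, among them MRPL18 (-0.00065), MRPL43 (-0.027), MRPS26 (-0.12) and MRPS36 (-0.0054). Of 384 values of 48 members under alternatives, 338 stayed within their counting interval. The other values left it, all per total counts. Of these, 4 changed sign where the main interval had left out 0, and 42 are counted as moved. Some of the 42 also changed sign, such as MRPL12 (-0.091 per total counts). The 384 values include those under other count filters, which cannot change a member's own value. DESeq2 size factors and FPKM ratios shifted all genes by only -0.004 at the median, and TMM on protein-coding genes by -0.03. The 338 values are thus no measure of stability. Per total counts, the scale that differs most, nearly all of the 48 members left their interval. Without members that have a listed pseudogene, 38 of 43 were above 0, there being fewer members, and the large minus small median was -0.22. Against protein-coding counts the members' share was 0.438% in MAEL WT and 0.476% in MAEL KO, and against counts outside the mitochondrial genome 0.443% and 0.489%, the denominators being smaller. DESeq2 size factors, FPKM ratios, TMM on protein-coding genes, added counts of 0.1 or 5, and other count filters gave member medians from 0.37 to 0.40. Alternatives chosen after seeing the data gave medians of 0.39 (GC trend removed) and 0.40 (chromosome medians subtracted). The median was 0.47 without members sharing at least 30% of their principal transcript's bases with other genes. Low counts limit MRPS24, MRPL38 and MRPL53, whose counting intervals are the widest and whose principal transcripts overlap other annotated genes, as given above.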

Other observations

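The tables also list 75 pseudogenes named after 34 of the members, up to 8 for 1 member (MRPS21). Only 14 had a count in either library, and together they held 205 counts in MAEL WT and 171 in MAEL KO. MRPL45P2 had 102 and 72 counts, MRPS31P4 42 and 56, MRPS31P5 37 and 24, and MRPS17P1 14 and 3. Their parent genes had 915 and 1361 counts (MRPL45), 363 and 612 (MRPS31), and 354 and 413 (MRPS17). The directions of MRPL45P2, MRPS31P5 and MRPS17P1 were opposite to those of the parents, though of these only the interval of MRPS17P1 left out 0. How reads that match both parent and pseudogene were assigned is not given in the sources used here, and these counts are uncertain. Of 2 antisense or divergent transcripts with member names, MRPS30-DT had 18 and 15 counts and MRPL23-AS1 11 and 2.

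Some genes that start beside members had larger values than the members. SKA3, a kinetochore gene beside MRPL57, had 126 and 393 counts (log2 fold change 1.84, against 0.66 for MRPL57), and NCAPD2, a condensin subunit gene beside MRPL51, had 1157 and 2963 counts (1.57, against 0.63). OAZ3 beside MRPL9 had 69 and 23 counts (-1.34, against 0.27). These pairs were picked after their values were seen, and each gene's value comes from the same 2 libraries. Exons of NCAPD2 overlap 31.3% of the exon bases of MRPL51, and those of OAZ3 18.4% of the exon bases of MRPL9.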
